A study of Homo sapiens with 4 samples.

Results

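The comparison set the libraries numbered replicate 2 against those numbered replicate 1, within the untagged and within the biotin-tagged arm of a miRNA pull out from DU-145 cells. Each gene was given 1 difference per arm, replicate 2 minus replicate 1 on the log2 scale, and genes whose differences had the same direction in both arms were set against genes that differed in 1 arm only. Of 24596 genes with summed values, the 11321 whose scaled FPKM averaged 0.5 or more over the libraries were compared, of which 10481 are coding and 840 noncoding. All 4 of the 4 libraries were used, and the difference of tagged from untagged libraries was tested for no gene.

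DU-145 is an established cell line from a metastasis of a prostate carcinoma. In the miR-28CT arm (n = 2) cells received 60 nM of an untagged miR-28-5p duplex, and in the miR-28BIO arm (n = 2) 60 nM of 3′ biotin-tagged miR-28-5p duplexes, mixed from a form with thiouridine at nucleotide 8 and a form with it at nucleotide 18. Cells of both arms were irradiated with ultraviolet light, RNA was extracted, and what streptavidin beads retained was made into stranded total RNA libraries, so the miR-28CT libraries hold background RNA. FPKM, the fragments per kilobase of transcript, relative to the mapped fragments of the library, were summed per gene symbol, scaled between libraries by the median of ratios, and given a pseudocount of 0.1 before the log2.

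Total RNA libraries hold RNAs of unlike origin. RNA polymerase III makes short structural RNAs such as 7SL, the RNA of the signal recognition particle, and RMRP and RPPH1, the RNAs of the ribonucleases MRP and P. Small nucleolar RNAs (snoRNAs) guide the modification of ribosomal RNA and are mostly cut from introns, while histone mRNAs of the S phase end in a stem-loop instead of a poly(A) tail.

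Replicate 2 libraries differed from replicate 1 libraries largely alike in both arms. Relative to the median of all genes, short RNAs and GC-rich mRNAs were higher. Long, AT-rich mRNAs with purine-rich coding sequences were lower. With each library's FPKM set to the same sum, 213 genes were past 2-fold higher in both arms and 6677 lower. The median of all genes then lay at -2.64 in miR-28CT and -1.34 in miR-28BIO. Under the median of ratios, histone mRNAs, many snoRNAs and mRNAs such as RPS29, MESP1 and NME3 were higher in both replicate 2 libraries. Of 6 polymerase III RNAs 3 rose by limma and 1 fell, against 23.7% and 20% of all genes. With GC content and length removed 0 of the 5 with a sequence rose and 1 fell, against 10.5% and 8.69% of all genes. PTMA, ANP32B, HMGB2 and the HSP90 genes were lower in both replicate 2 libraries. Of 34 mRNAs of splicing factors 20 fell by limma and 4 rose, against 20% and 23.7% of all genes. With GC content and length removed 7 fell and 6 rose, against 8.69% and 10.5% of all genes. Differences past 2-fold in 1 arm only were fewer than those in both, but not with GC content and length removed or past 4-fold, and most had the same sign in the other arm. The numbers stand for biological replicates, and the labels do not say what else separates replicate 1 from replicate 2, so that culture, extraction, library preparation and sequencing run cannot be told apart, and more of an RNA in the cells cannot be told apart from more of it retained by the beads.

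Depth estimated from the deposited coverage was 5916811 and 7427269 reads in miR-28CT replicates 1 and 2, and 5462132 and 5762647 in miR-28BIO replicates 1 and 2. The library totals implied by the ratio of coverage to FPKM were 17890164 and 12992671 reads in miR-28CT and 17307251 and 14669521 in miR-28BIO, lower in replicate 2 of each arm, so these estimates of depth differ in order. The summed FPKM of all records was 229580 and 1204690 in miR-28CT and 129801 and 451002 in miR-28BIO, higher in replicate 2 of each arm. Cufflinks gave the status HIDATA (too many reads to estimate) to 26 records, all in replicate 2 libraries, and 18 of them were of ribosomal RNA. Those records were left out, so ribosomal RNA was not compared.

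Past 2-fold in both arms, 2163 genes (19.1% of the 11321) were higher and 1373 (12.1%) lower in replicate 2. In miR-28CT taken alone, 2991 genes (26.4%) were past 2-fold higher and 2052 (18.1%) lower, and in miR-28BIO 2737 (24.2%) were higher and 1851 (16.4%) lower. Of the genes past 2-fold in miR-28CT 70.1% were past it the same way in miR-28BIO, and of those in miR-28BIO 77.1% in miR-28CT. Only 1 arm was past 2-fold for 1436 genes (12.7%) in miR-28CT and 981 (8.67%) in miR-28BIO (1205 and 1097 with GC content and length removed, where 883 and 848 were past it in both arms, and 720 and 476 past 4-fold, where 771 and 224 were), and 71 (0.627%) were past it in opposite directions. The median size of a gene's difference was 0.88 in miR-28CT and 0.79 in miR-28BIO, against 0.36 between the differences of the arms. Across genes, which are not independent replicates and share each library's depth and composition, the differences of the arms had a Pearson r of 0.622 and a Spearman rho of 0.829, and over the 10771 genes above 0 in every library 0.878 and 0.876. For the levels themselves, Spearman rho was 0.883 between the replicate 1 libraries and 0.842 between the replicate 2 libraries, but 0.674 within miR-28CT and 0.675 within miR-28BIO.

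With the arm as a term, limma called 2687 genes (23.7%) higher and 2268 (20%) lower in replicate 2 at an adjusted p under 0.05. These included 1979 of the genes past 2-fold higher in both arms and 1287 of those past it lower. With each library's FPKM set to the same sum, the median of all genes moved from 0.00 and 0.03 in miR-28CT and miR-28BIO to -2.64 and -1.34, and limma called 176 higher and 2740 lower. Directions are therefore given relative to the median of all genes under the median of ratios, and genes higher by less than those shifts turn lower under the other scaling. With 4 libraries limma has 1 residual degree of freedom, pooled over genes. That residual is the difference between the arms in the replicate difference. These p-values therefore rest on how far the arms disagree, not on spread among replicates. No exact test of 2 against 2 can go below a p of 0.333. Without miR-28CT replicate 1 and with the replicate number as the only term, limma called 0 genes higher and 0 lower (unadjusted p under 0.05 for 1660 and 990), and without miR-28BIO replicate 1 also 0 and 0 (1354 and 1046). Without miR-28CT replicate 2 limma called 143 higher and 6 lower, and without miR-28BIO replicate 2 it called 127 and 5. On single transcripts, not summed per gene, limma called 0 higher and 0 lower (2649 and 2257 at an unadjusted p under 0.05).

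**Figure D1:**
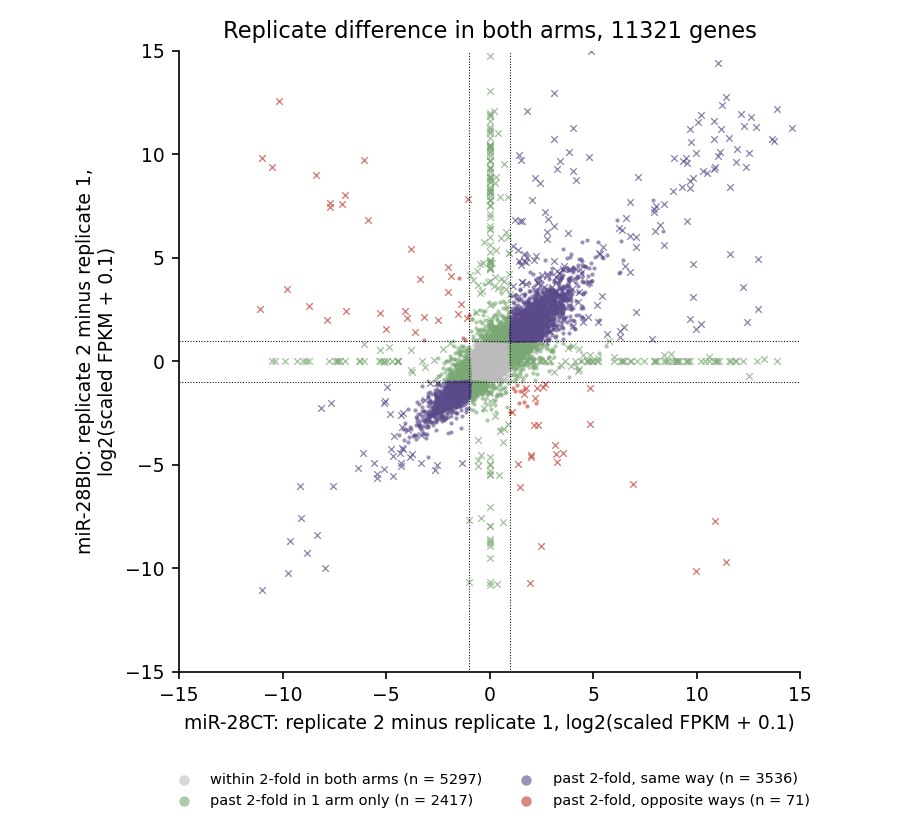
Each point is 1 of 11321 genes, with replicate 2 minus replicate 1 in log2(scaled FPKM + 0.1) on the x axis for miR-28CT and on the y axis for miR-28BIO; crosses are genes listed at 0 in at least 1 library and dotted lines mark 2-fold. The 3536 genes past 2-fold the same way lie along the diagonal, and genes at 0 on one side of an arm form the arms of the cross; with equal FPKM sums the median gene would lie at -2.64 and -1.34.

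The 10 genes highest in replicate 2 in both arms, ranked by the smaller of their differences, were compact and mostly GC-rich. RPS29, a protein of the small ribosomal subunit, had a scaled FPKM of 40.2 and 9547 in miR-28CT replicates 1 and 2 and of 13.6 and 3038 in miR-28BIO replicates 1 and 2. Both replicate 2 libraries lay far above both replicate 1 libraries. Replicate 2 was 237-fold above replicate 1 within miR-28CT and 222-fold within miR-28BIO, and the limma coefficient was 7.84 ± 0.23 (SE, adjusted p 0.00451). RPL39, of the large subunit, had 10.5, 476, 4.38 and 142 in the same order, differences of 5.49 and 4.98. RPS29 (chromosome 14, 49583572 to 49586416 of hg38) lies 163 bases from RN7SL1, a 7SL gene too abundant to be estimated in miR-28CT replicate 2, and whether reads of that neighbour enter its value was not tested. The Cajal body RNA SCARNA6, a guide for the modification of spliceosomal RNA, had 4.12, 295, 1.42 and 172. H2AC4, an H2A histone gene, had 19.3, 666, 1.29 and 45.9, so that both replicate 2 libraries lay above both replicate 1 libraries.

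The other 6 of these were mRNAs for a transcription factor, enzymes, a membrane protein and secreted proteins. MESP1, a transcription factor of the early mesoderm, had a scaled FPKM of 0.412 and 41.5 in miR-28CT and 0.0653 and 9.19 in miR-28BIO. NME3, a nucleoside diphosphate kinase, had 1.35 and 74.8, and 1.17 and 44.9. ANTKMT, which methylates the mitochondrial adenine nucleotide carrier, had 1.24 and 49.9, and 0.734 and 45.9. In each of these 3 genes both replicate 1 libraries were at 1.35 or less and both replicate 2 libraries at 9.19 or more. NICOL1, a secreted protein, had 0.512, 199.95, 0.258 and 27.7, METRN, the secreted meteorin, 0.797, 78.5, 0.412 and 15.3, and TMEM160, a transmembrane protein, 2.53, 115, 0.677 and 24.998. METRN and ANTKMT lie close together on chromosome 16, from 715173 to 717480 and from 721142 to 722590. Transcript lengths of the 10 genes were 266 to 1162 bases, and the GC content of the 9 with a sequence was 43.1% to 72.2%. All 10 rose by limma, with differences of 5.10 to 8.35 in miR-28CT and 4.92 to 7.79 in miR-28BIO and an adjusted p of at most 0.00689. They were chosen by these same differences, so passing limma is no independent support. The 6 genes of this paragraph reached the mean of 5 needed for the ranking only through their replicate 2 libraries. With GC content and length removed the 9 with a sequence still rose by limma, with differences of 1.61 to 8.23 and 1.48 to 7.62. The coefficient of MESP1 was then 2.51 instead of 6.08, and that of TMEM160 1.66 instead of 5.23.

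A 90-base stretch of coding sequence is shown for the first 4 coding genes of this set with a sequence in GENCODE, which NICOL1 lacks, and more than 1 exon, to let the base composition be read: the stretch with the most G and C, in hg38, capitals marking runs of at least 5 G or C. RPS29, whose stretch lies in exon 2 of 3 on the minus strand at chr14:49585960-49586049, has 53.3% G and C there. MESP1 has 84.4% in exon 1 of 2 on the minus strand at chr15:89750994-89751083, ANTKMT 80% in exon 1 of 5 on the plus strand at chr16:721277-721366, and NME3 76.7% in exon 4 of 5 on the minus strand at chr16:1770904-1770993. The median of such best stretches was 68.9% in all tested coding genes, so that of RPS29 lies below it and those of the other 3 above.
RPS29: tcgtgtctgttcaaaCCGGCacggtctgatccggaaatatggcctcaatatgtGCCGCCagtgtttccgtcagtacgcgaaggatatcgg
MESP1: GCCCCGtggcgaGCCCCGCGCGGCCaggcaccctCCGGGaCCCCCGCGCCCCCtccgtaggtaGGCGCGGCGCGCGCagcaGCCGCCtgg
ANTKMT: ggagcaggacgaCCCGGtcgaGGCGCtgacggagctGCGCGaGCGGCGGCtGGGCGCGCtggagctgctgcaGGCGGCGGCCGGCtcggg
NME3: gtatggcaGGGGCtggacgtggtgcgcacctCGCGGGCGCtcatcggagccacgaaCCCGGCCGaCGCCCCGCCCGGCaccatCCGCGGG

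Among the 10 genes lowest in replicate 2 in both arms, PTMA, prothymosin alpha, an acidic nuclear protein, had a scaled FPKM of 45.6 and 2.54 in miR-28CT replicates 1 and 2 and of 22.5 and 1.54 in miR-28BIO replicates 1 and 2. ANP32B, an acidic histone chaperone, had 21.0, 1.69, 20.8 and 1.44 in the same order, and ANP32E, the chaperone that removes the histone variant H2A.Z, 65.8, 6.54, 69.9 and 7.29. HMGB2, a DNA-bending protein of chromatin, had 12.7, 1.15, 12.2 and 1.21. In these 4 genes each replicate 2 library was far below each replicate 1 library. TERF2IP, the RAP1 protein of telomeres, had 16.3, 1.09, 17.9 and 1.76, GPS2, a subunit of the NCoR corepressor complex, 9.71, 0.699, 19.4 and 1.57, and MPHOSPH10, a protein of the U3 snoRNA particle, 10.2, 0.991, 13.0 and 1.04. SPA17, sperm protein 17, had 10.1, 0.960, 8.57 and 0.735.

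The last 2 of these genes are near copies of others, so their values, and those of PTMA with its many processed copies, are uncertain. HSP90B2P, a pseudogene of HSP90B1, had 30.7, 2.64, 29.98 and 2.41, and HSP90B1 itself, the HSP90 of the endoplasmic reticulum, had 112, 21.1, 101 and 18.4. UQCRHL, a copy of the UQCRH subunit of respiratory complex III, had 42.3, 2.49, 15.98 and 1.54. All 10 fell by limma, with differences of -4.11 to -3.23 in miR-28CT and -3.78 to -3.23 in miR-28BIO and an adjusted p of at most 0.00689. Like the 10 higher genes, they were chosen by these same differences. Passing limma, or keeping direction without a library, is therefore no independent support for either set. Without any 1 of the 4 libraries the 10 higher and the 10 lower genes kept their directions, but 0 of the 20 passed limma with the replicate number as the only term, although the 10 lower and at least 9 of the higher ones had an unadjusted p under 0.05 each time. The lowest adjusted p was 0.120 without miR-28CT replicate 1, 0.0909 without miR-28CT replicate 2, 0.165 without miR-28BIO replicate 1 and 0.0721 without miR-28BIO replicate 2.

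For 3 of the first 4 coding genes of the lower set with more than 1 exon, the 90-base stretch of coding sequence with the most A and G is shown, capitals marking runs of at least 6 purines. It makes up 83.3% purines in ANP32B (exon 5 of 7, plus strand, chr9:98011271-98011360), 86.7% in GPS2 (exon 3 of 11, minus strand, chr17:7314508-7314597) and 72.2% in TERF2IP (exon 2 of 3, plus strand, chr16:75654303-75654392). Chosen in this way a stretch is purine-rich in any gene: the median of the best stretches was 67.8% in all tested coding genes and 75.6% in those past 2-fold lower in both arms.
ANP32B: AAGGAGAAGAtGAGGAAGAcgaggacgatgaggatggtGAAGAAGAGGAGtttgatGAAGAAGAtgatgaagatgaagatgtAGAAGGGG
GPS2: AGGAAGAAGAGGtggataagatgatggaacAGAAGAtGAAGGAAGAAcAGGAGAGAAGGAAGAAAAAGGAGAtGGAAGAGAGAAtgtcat
TERF2IP: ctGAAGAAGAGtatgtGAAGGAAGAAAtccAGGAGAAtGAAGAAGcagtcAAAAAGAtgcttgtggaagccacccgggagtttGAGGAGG

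**Figure D2:**
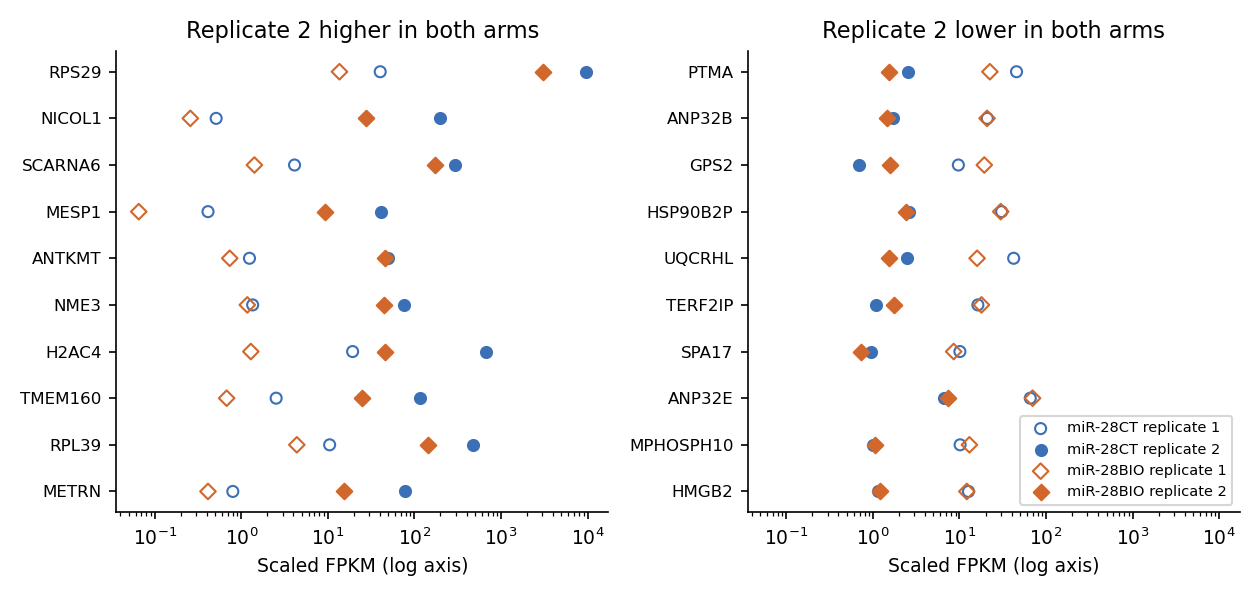
Scaled FPKM on a log axis of the 10 genes highest (left) and the 10 lowest (right) in replicate 2 in both arms, 1 point per library, open for replicate 1 and filled for replicate 2. In RPS29 the replicate 2 libraries are at 9547 and 3038 against 40.2 and 13.6, and in PTMA at 2.54 and 1.54 against 45.6 and 22.5.

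Base composition followed the replicate difference over all genes. In the 172 genes with under 35% GC in their canonical transcript, the median level was 4.83 and 2.45 in miR-28CT replicates 1 and 2 and 4.75 and 2.83 in miR-28BIO, while in the 410 with 65% or more it was 1.12 and 5.88, and 0.726 and 4.52. The median difference went from -1.02 in miR-28CT and -0.81 in miR-28BIO in the first group, through -0.10 and -0.13 between 45 and 50% GC, to 2.32 and 2.27 in the last, relative to the all-gene median; of the last group 76.6% were past 2-fold higher in both arms. Across 10402 coding genes the Spearman rho of GC content with the difference was 0.697 in miR-28CT and 0.656 in miR-28BIO. GC content was related to the level inversely in both replicate 1 libraries (-0.287 and -0.341) and directly in both replicate 2 libraries (0.215 and 0.116).

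Length had a weaker relation, with a rho of -0.301 in both arms over all genes. Genes of 200 to 500 bases had a median difference of 2.36 and 2.03 and the 2205 of 5000 bases or more one of -0.44 and -0.36. Among coding genes of at least 3000 bases, the 1034 with 55% GC or more had a median of 1.21 and 0.98 and the 2583 under 45% one of -0.77 and -0.65, so that long genes lay on either side by their GC content. Short coding genes under 45% GC had a median of 0.00 and -0.03.

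Coding genes past 2-fold lower in both arms also had purine-rich coding sequences. The median purine share was 56.6% in the 1275 lower genes with a sequence, 50.2% in the 1967 higher ones and 52.7% in all 10402, and GAA and GAG made up 9.20%, 5.99% and 7.03% of their codons. The motif GAAGAAGAA, searched on the coding strand in any frame, was in the coding sequence of 423 of the lower genes (33.2%), 71 of the higher ones (3.61%) and 1311 of all (12.6%), whose coding sequences had a median of 1776, 1179 and 1394 bases. GAGGAGGAG was in 19.4%, 13.1% and 13.6%. After the median of each cell of GC content and length was subtracted in each library, a step chosen after seeing the data, the rho of the purine share with the difference was -0.357 in miR-28CT and -0.342 in miR-28BIO. That step left 883 genes past 2-fold higher and 848 lower in both arms, 1170 of them the same genes in the same direction as before, and limma then called 1167 (10.5% of 11147) higher and 969 (8.69%) lower.

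**Figure D3:**
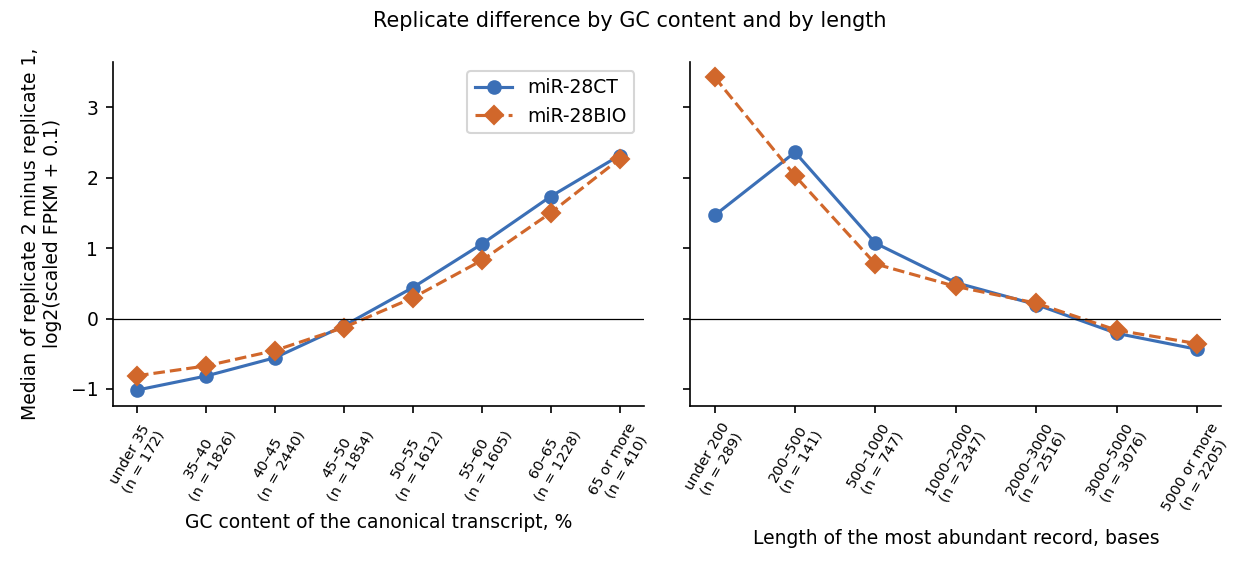
Median replicate 2 minus replicate 1 difference in log2(scaled FPKM + 0.1) by GC content (left) and by length (right), with the number of genes in each bin, circles for miR-28CT and diamonds for miR-28BIO. The medians rise with GC content from -1.02 and -0.81 to 2.32 and 2.27; with equal FPKM sums the median of all genes is at -2.64 and -1.34, and the medians are read relative to it.

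Structural RNAs of polymerase III held a larger share of each replicate 2 library than of the replicate 1 library of the same arm. Their share of the reads estimated from coverage was 8.36% and 50.3% in miR-28CT replicates 1 and 2, and 1.44% and 11.6% in miR-28BIO, while coding genes held 88.0% and 47.0%, and 94.6% and 84.8%. These shares leave out RN7SL1 for its status, although its FPKM was 101751 in miR-28BIO replicate 2. RN7SL2, a 7SL RNA nearly identical to RN7SL1 and so uncertain between them, had a scaled FPKM of 15452, 475340, 3703 and 53974. RMRP had 9978, 295280, 2044 and 54100, and both replicate 2 libraries were above both replicate 1 libraries. Of the 6 tested RNAs of this class, 3 rose by limma and 1 fell, against 23.7% and 20% of all genes: RMRP, RN7SL2 and RPPH1 rose, and RNY1, a Y RNA, fell, with 1160, 438.5, 251 and 26.6. The class median was 3.96 and 1.85. With GC content and length removed it was 0.19 and -0.79 over the 5 with a sequence, of which 1 passed limma, lower.

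Histone mRNAs of the S phase were higher in replicate 2 of both arms. Of 71 listed genes 52 were tested, with a median scaled FPKM of 44.99 and 354 in miR-28CT and 19.6 and 104 in miR-28BIO. By limma 45 rose and 0 fell, against 23.7% and 20% of all genes, and 41 were past 2-fold higher in both arms, against 19.1% of all genes. H3C2, an H3 gene, had 167, 2583, 58.6 and 1234, and H2AC6, an H2A gene, 144, 1952, 30.6 and 237.8. H2BC7 and H2BC18, H2B genes, did not pass, with 22.1, 18.0, 33.6 and 24.2 for the first and 67.1, 69.6, 40.6 and 40.7 for the second. Sequences of histone genes are much alike, so single members are less certain than the family; the median of 2.86 and 2.79 was 1.17 and 1.25 with GC content and length removed, with 24 genes higher and 4 lower by limma, against 10.5% and 8.69% of all genes there, and 0.12 and 1.43 with equal FPKM sums. By share of the summed FPKM the log2 ratio of the class was 0.09 and 1.21.

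Small RNA records, meaning snoRNAs, Cajal body RNAs and miRNA hairpins, were above 0 in more cases in replicate 2. Of 290 tested, 162 were listed at 0 in miR-28CT replicate 1 and 103 in replicate 2, and 180 and 81 in miR-28BIO. By limma 82 rose and 10 fell, against 23.7% and 20% of all genes, and 99 were past 2-fold higher in both arms and 11 lower, against 19.1% and 12.1%. Past 2-fold in miR-28CT only were 63 and in miR-28BIO only 83, against 12.7% and 8.67% of all genes. In opposite directions were 23, against 0.627% of all genes. Of 114 C/D box snoRNAs, which guide methylation, 30 rose and 2 fell, with a median of 1.95 and 2.87, and of 74 H/ACA box snoRNAs, which guide pseudouridylation, also 30 rose and 2 fell, with a median of 2.30 and 4.52. With equal FPKM sums these medians were 0.00 and 1.47 for the first and 0.00 and 3.13 for the second. SNORA73A, the most abundant H/ACA box snoRNA, had a scaled FPKM of 551, 12452, 135 and 1341, and SNORA63 36.9, 2931, 38.1 and 765. The most abundant C/D box snoRNA went the other way without passing limma: SNORD102 had 3494, 924, 2377 and 1188 (adjusted p 0.0505), although it passed, lower, on FPKM as deposited (adjusted p 0.0187), under the upper quartile (0.0395) and with equal FPKM sums (3.05e-11). SNORD12B and SNORD44 were listed at 0 in both replicate 1 libraries and at 1488 and 465 and at 1375 and 160 in the replicate 2 libraries. C/D box snoRNAs, of a median 80.5 bases, held 5.91% and 2.69% of the summed FPKM in miR-28CT and 6.81% and 9.72% in miR-28BIO. Of the estimated reads they held 0.321% and 0.456%, and 0.212% and 0.725%, so a high FPKM here can rest on few reads.

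Cajal body RNAs, spliceosomal RNAs and miRNA hairpins each had members that rose and members that fell by limma. Of 18 Cajal body RNAs 8 rose and 2 fell, with a median of 0.78 and 1.89 (-0.40 and 0.50 with equal FPKM sums), and SCARNA10, the most abundant, had 682, 2623, 44.1 and 64.6 without passing limma (adjusted p 0.0832), although it passed on FPKM as deposited (0.0458). Of 12 spliceosomal RNAs 5 rose and 2 fell, with a median of 1.18 and 0.45 (-1.30 and 0.00 under that scaling). RNU4-2, a U4 RNA, rose, with 213, 1028, 16.5 and 111, but not with equal FPKM sums (0.44, adjusted p 0.733), and RNU11, of the minor spliceosome, was listed at 55.3 and 19.1 in replicate 1 and at 0 in both replicate 2 libraries; whether such a 0 is a failed estimate was not tested. Of 84 miRNA hairpins 14 rose and 4 fell, against 23.7% and 20% of all genes, with a median of 0.00 and 2.70 (0.00 and 1.29 with equal FPKM sums); 15 were past 2-fold higher in both arms, against 19.1% of all genes, and 25 were past it in miR-28CT only and 37 in miR-28BIO only, against 12.7% and 8.67%. The hairpin MIR3654 had 792, 11413, 307 and 4934, differences of 3.85 and 4.01.

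**Figure D4:**
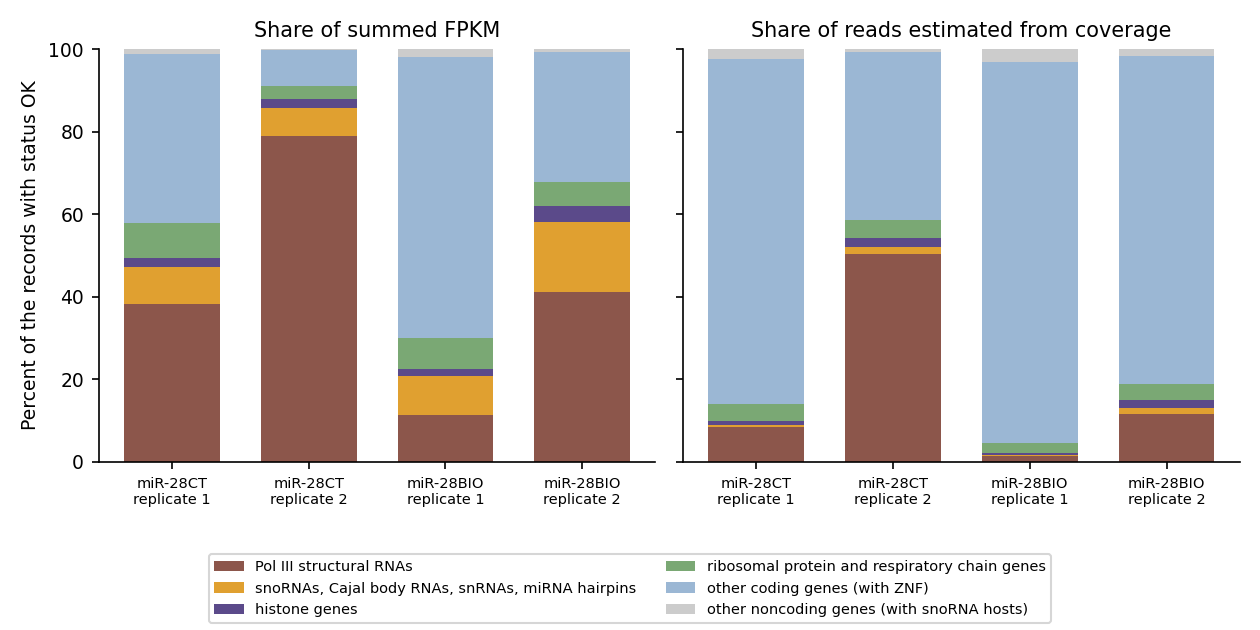
Stacked bars give, for each of the 4 libraries, the percent of the summed FPKM (left) and of the reads estimated from coverage (right) held by each class among records with status OK in every library, so without RN7SL1. Polymerase III RNAs hold 79.1% of the FPKM and 50.3% of the reads of miR-28CT replicate 2, against 38.4% and 8.36% in miR-28CT replicate 1.

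Genes of ribosomes and of respiration lay above the median of all genes. Cytosolic ribosomal protein genes had a median scaled FPKM of 70.7 and 147 in miR-28CT and 30.4 and 62.9 in miR-28BIO, and of 80 tested 43 rose and 9 fell, against 23.7% and 20% of all genes in this and the next classes. Their median of 0.99 and 0.95 was -1.75 and -0.44 with equal FPKM sums, still above the median of all genes. RPS21 had 86.2, 2641, 24.3 and 458.8 and RPLP0 42.7, 581, 38.7 and 619, whereas RPL11 fell, with 823, 345, 592 and 168. Respiratory chain genes had a median of 0.86 and 0.89 (-1.87 and -0.51 under that scaling), and 42 of 78 rose and 9 fell. COX8A, a subunit of cytochrome oxidase, had 174, 1518, 69.4 and 495 and rose, but not with equal FPKM sums (0.91, adjusted p 0.377). Mitochondrial ribosomal protein genes had a median of 0.28 and 0.41 (-2.45 and -0.97 under that scaling), with 27 of 76 higher and 12 lower by limma, but with GC content and length removed it was 0.07 and 0.15, against 0.10 and 0.11 for all genes. The median was then 0.65 and 0.42 for the cytosolic and 0.63 and 0.58 for the respiratory chain genes. MRPL41 rose, with 28.01, 189, 8.84 and 97.0, but with GC content and length removed its coefficient was -0.48, and with equal FPKM sums 1.03 (adjusted p 0.486). Of 19 noncoding hosts of snoRNAs, 8 rose and 0 fell, with a median of 1.51 and 0.55 (-1.23 and -0.85 with equal FPKM sums), and ZFAS1, the most abundant, had 132, 164, 59.1 and 46.1.

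ZNF zinc finger genes, which code for DNA-binding proteins, were shifted down. Of 391 tested, 35 rose and 89 fell, against 23.7% and 20% of all genes, with a median level of 1.84, 1.48, 2.104 and 1.69 and a median difference of -0.51 and -0.35. With GC content and length removed the median was 0.00 and 0.02, against 0.10 and 0.11 for all genes, with 8 higher and 21 lower by limma, against 10.5% and 8.69% of all genes there. ZNF22, the most abundant, had 7.42, 4.90, 71.7 and 102.8 and did not pass limma. The 9823 other coding genes had a median of 0.00 and 0.01, with 2335 higher and 2075 lower, and NOP10, the most abundant of them and a protein of H/ACA particles, had 152, 402, 1418 and 3641. NOP10 passed limma (1.38 ± 0.26; adjusted p 0.0246), but its coefficient was -0.69 with equal FPKM sums and 1.12 (adjusted p 0.0719) with GC content and length removed. In fits of 3 libraries, which leave no residual if the arm is a term and so were made without it, the coefficient was -0.23 without miR-28CT replicate 1 and -0.21 without miR-28BIO replicate 2, and 2.97 and 2.99 without miR-28CT replicate 2 and miR-28BIO replicate 1. Such fits also set libraries of different arms against each other. Within the arms, the difference of NOP10 was 1.40 in miR-28CT and 1.36 in miR-28BIO. Of 494 other noncoding genes 62 rose and 61 fell.

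**Figure D5:**
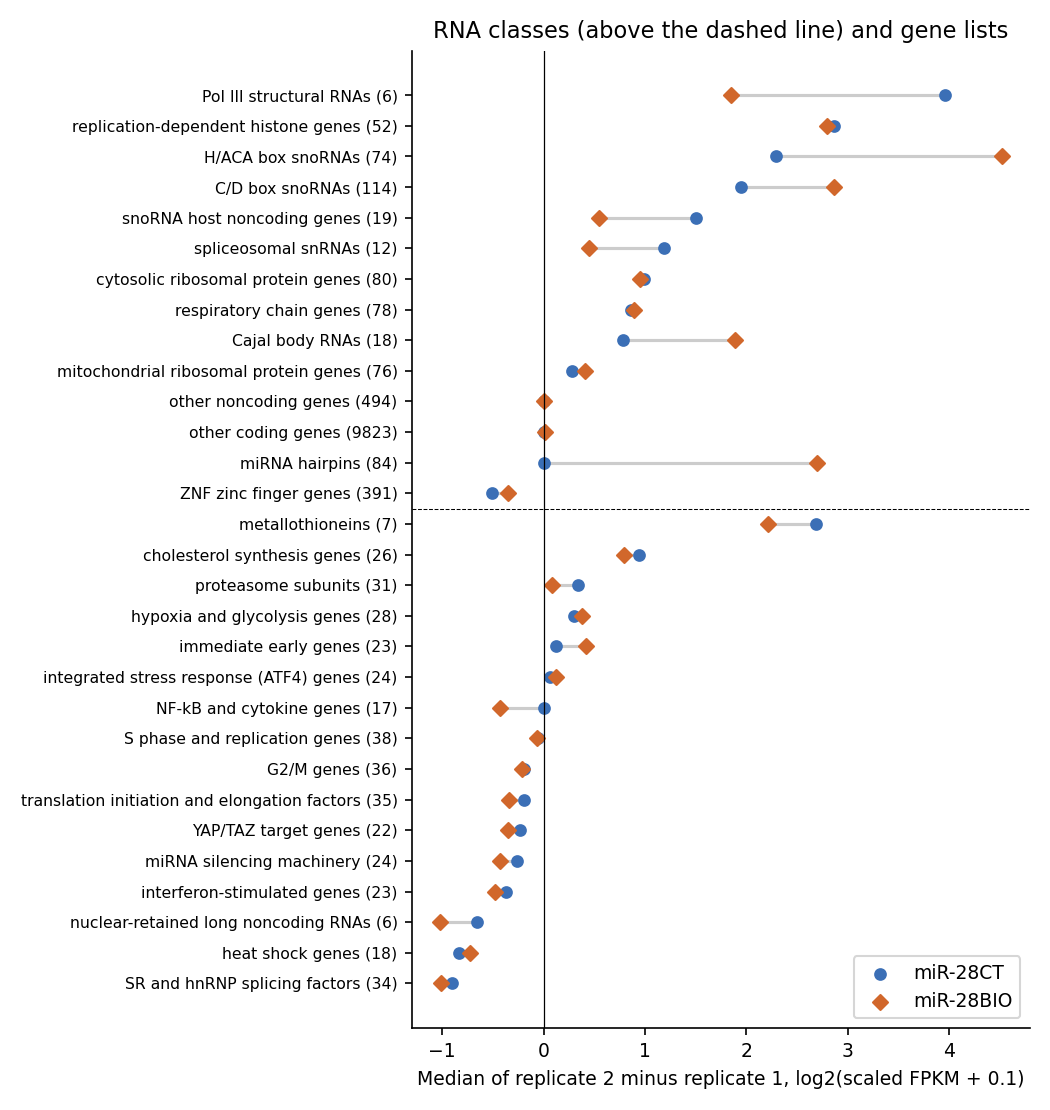
Median replicate 2 minus replicate 1 difference in log2(scaled FPKM + 0.1) of each RNA class (above the dashed line) and gene list, with the number of tested genes in brackets, circles for miR-28CT and diamonds for miR-28BIO. Histone genes lie at 2.86 and 2.79 and splicing factors at -0.91 and -1.01; with equal FPKM sums most medians move down with that of all genes (-2.64 and -1.34). Those of snoRNAs and miRNA hairpins then lie at 0.00 in miR-28CT, and those of ribosomal protein, respiratory chain, snoRNA host, cholesterol, glycolysis, proteasome, immediate early and stress response genes turn negative in both arms and those of Cajal body RNAs, spliceosomal RNAs and metallothioneins in miR-28CT.

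Among gene lists by function, splicing factors and heat shock genes were lower in replicate 2. The 34 genes of SR and hnRNP proteins, which bind pre-mRNA and steer splicing, had a median scaled FPKM of 29.0 and 17.5 in miR-28CT and 26.3 and 15.3 in miR-28BIO. By limma 20 fell and 4 rose, against 20% and 23.7% of all genes, with a median difference of -0.91 and -1.01, but with GC content and length removed 7 fell and 6 rose, against 8.69% and 10.5% of all genes there, and the median was -0.21 and -0.41, against 0.10 and 0.11 for all genes. SRSF11 had 20.3, 3.32, 27.96 and 7.59 and HNRNPD 50.1, 12.8, 47.6 and 14.1, while PTBP1 rose, with 29.1, 115, 25.9 and 173. Of 18 heat shock genes 11 fell and 3 rose, with a median of -0.84 and -0.73, which was -0.45 and -0.55 with 6 lower by limma with GC content and length removed. HSP90AB1, a cytosolic HSP90, had 317, 42.0, 270 and 46.8 and HSP90AA1, the other one, 140, 24.2, 90.2 and 17.9, whereas the small heat shock protein gene HSPB1 rose, with 14.6, 61.3, 10.7 and 38.5.

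Metallothioneins and part of the cholesterol synthesis genes were higher. Of 7 tested metallothioneins, which bind zinc and copper, 6 rose and 0 fell, against 23.7% and 20% of all genes, with a median of 2.69 and 2.22, which turns just below 0 in miR-28CT with equal FPKM sums. MT2A had 545, 2061, 440 and 1646 and MT1E 182, 786, 490 and 2703. Of 26 cholesterol synthesis genes 14 rose and 2 fell, set against the same shares, with a median of 0.94 and 0.79 (-1.77 and -0.60 under that scaling). DHCR7, of the last step of the pathway, had 16.4, 87.25, 11.9 and 52.6, and SREBF2, the transcription factor that drives the pathway, 4.66, 17.6, 9.64 and 33.4. SREBF2 passed limma (1.84 ± 0.17; adjusted p 0.00773), but its coefficient was -0.22 with equal FPKM sums. HMGCS1 and SC5D, enzymes of the same pathway, fell, with 12.5, 7.26, 12.7 and 6.16 and with 5.11, 1.97, 3.37 and 1.34.

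Before GC content and length were removed, S phase genes rose and fell in shares not far from those of all genes, 23.7% and 20%. More genes of G2/M fell than rose, but not with GC content and length removed. Of 38 S phase genes 8 rose and 8 fell, with a median of -0.05 and -0.07, and of 36 G2/M genes 8 rose and 14 fell, with a median of -0.19 and -0.21. With GC content and length removed the medians were 0.11 and 0.13 for S phase and 0.11 and 0.02 for G2/M, against 0.10 and 0.11 for all genes. By limma 7 G2/M genes then rose and 6 fell, and 1 S phase gene rose and 3 fell, against 10.5% and 8.69% of all genes there. CKS1B, which binds cyclin-dependent kinases, had 3.66, 48.0, 1.37 and 17.9, and CDC20, an activator of the anaphase-promoting complex, 18.9, 102.6, 21.3 and 88.7. CENPE and HMMR, of the mitotic spindle, fell, with 12.4, 2.53, 20.8 and 4.62 and with 33.2, 5.596, 27.8 and 6.01. POLD1, a DNA polymerase subunit, and TK1, thymidine kinase, rose, while RFC1 and CDC45, of the replication machinery, fell.

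Genes of translation, protein breakdown and miRNA silencing were mixed too. Of 35 translation factors 7 rose and 13 fell, against 23.7% and 20% of all genes, with a median of -0.20 and -0.34 (0.27 and -0.11 with GC content and length removed), and EIF5B, which joins the ribosomal subunits, had 6.66, 0.334, 8.00 and 0.435. Of 31 proteasome subunits 8 rose and 6 fell, with a median of 0.34 and 0.08 (-2.40 and -1.32 with equal FPKM sums); in miR-28BIO it was below the median of all genes among genes with a mean of at least 5, 0.07 against 0.08, and with GC content and length removed, 0.03 against 0.11. Of 24 genes of miRNA silencing 4 rose and 7 fell, with a median of -0.27 and -0.43 (0.01 and 0.16 with GC content and length removed). TARBP2, a partner of Dicer, and AGO2, an Argonaute, rose, with 4.83, 25.01, 3.33 and 19.4 and with 5.38, 8.81, 5.45 and 12.003, and DROSHA and DICER1, the nucleases that cut miRNA precursors, fell, with 11.4, 3.83, 20.0 and 8.22 and with 15.4, 6.48, 12.9 and 5.01. Of 6 nuclear-retained noncoding RNAs 1 rose and 3 fell, with a median of -0.66 and -1.02, but with GC content and length removed 1 passed limma, lower, and the median was -0.25 and -0.55. TERC, the telomerase RNA, rose, with 7.24, 198, 4.21 and 75.3, and MALAT1, the most abundant of the other noncoding genes, fell, with 497, 195, 621 and 209.99 (limma coefficient -1.46, adjusted p 0.0175, but -0.59 and 0.174 with GC content and length removed).

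Signalling and stress lists had medians within 0.5 of 0 in both arms. Of 23 interferon-stimulated genes 4 rose and 5 fell, against 23.7% and 20% of all genes, with a median of -0.38 and -0.48, which was 0.31 and -0.00085 among genes with a mean of at least 5 and 0.15 and -0.46 with GC content and length removed. ISG15, a ubiquitin-like protein, had 7.61, 189, 3.11 and 45.8 and EIF2AK2, the RNA-activated kinase PKR, 11.1, 2.71, 11.3 and 3.55. Of 24 integrated stress response genes 7 rose and 6 fell, with a median of 0.06 and 0.12, which relative to all genes turns to -0.04 in miR-28CT with equal FPKM sums and to -0.00654 with GC content and length removed. Its transcription factor CEBPB rose, with 6.16, 48.5, 4.05 and 37.9, and PPP1R15A, a phosphatase subunit that ends the response, fell, with 8.74, 0.855, 7.97 and 0.826. Of 23 immediate early genes 6 rose and 2 fell (median 0.12 and 0.42, or -2.62 and -0.94 with equal FPKM sums and -0.47 and -0.09 with GC content and length removed). Of 28 hypoxia and glycolysis genes 6 rose and 4 fell (0.30 and 0.37, or -2.34 and -0.99 with equal FPKM sums). Of 22 YAP/TAZ targets 4 rose and 6 fell (-0.23 and -0.35, or -0.09 and 0.04 with GC content and length removed). Of 17 NF-kB and cytokine genes 3 rose and 3 fell (0.00 and -0.43, or -0.40 and -0.50 with GC content and length removed). PFKL, a glycolytic kinase, had 5.72, 33.6, 4.67 and 25.995, and TPI1, triose phosphate isomerase, was listed at 7.98 and 3.44 in replicate 1 and at 0 in both replicate 2 libraries, and whether that is a failed estimate was not tested.

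Differences past 2-fold in 1 arm only mostly had the same sign in the other arm. Of the 2417 such genes, 1991 (82.4%) had the same sign in the other arm, 884 (36.6%) were within 0.5 there, and 994 passed limma, against 43.8% of all genes. The 793 genes higher in miR-28CT only had a median of 0.61 in miR-28BIO and the 643 lower ones -0.67, and the 538 higher in miR-28BIO only had a median of 0.53 in miR-28CT and the 443 lower ones -0.71. Small RNA records made up 146 of the 2417, against 2.56% of all genes. A gene's difference in one arm was not tested against that in the other, since the difference between the arms is the only residual of the fit.

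Among genes past 2-fold in 1 arm and within 0.5 in the other, a snoRNA had the largest difference in 3 of the 4 patterns, and JUND among those lower in miR-28CT. SNORD15B had a scaled FPKM of 4.73 and 189 in miR-28CT and 4.89 and 6.45 in miR-28BIO, and SNORA1 13.9 and 110, and 21.6 and 20.6. JUND, an AP-1 transcription factor, was lower in miR-28CT, with 10.4 and 1.79 against 5.90 and 6.63 in miR-28BIO, as was MRPL40, a mitochondrial ribosomal protein, with 39.2 and 12.4 against 19.5 and 16.3. In miR-28BIO only, SNORA84 was higher, with 6.68 and 91.3 against 32.3 and 26.9 in miR-28CT, and so was PTTG3P, a processed copy of the securin gene and therefore uncertain, with 1.86 and 5.89 against 6.73 and 7.53. SNORA53 was lower there, with 33.3 and 3.31 against 234 and 326 in miR-28CT, and so was TOMM20, a receptor of mitochondrial protein import, with 31.0 and 11.2 against 14.2 and 12.9. None of these 8 genes passed limma, but with equal FPKM sums JUND (adjusted p 0.0263) and SNORA53 (0.0224) passed, lower. With GC content and length removed JUND was past 2-fold lower in both arms (-4.67 and -1.70). SNORA84 (-1.14 and 2.90) and SNORA53 (1.38 and -2.45) were then past it in opposite directions, and TOMM20 in neither arm (0.42 and -0.81). SNORD15B, SNORA1, MRPL40 and PTTG3P stayed past 2-fold in 1 arm only.

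Of the reference genes of expression studies, GAPDH and HPRT1 passed limma and ACTB did not. GAPDH, of glycolysis, had a scaled FPKM of 329, 731, 199 and 367 and rose by limma (1.02 ± 0.24; adjusted p 0.0386), but its coefficient was -1.06 with equal FPKM sums, its adjusted p 0.0529 with a pseudocount of 1, and its coefficient 0.15 (adjusted p 0.65) with GC content and length removed. ACTB, beta-actin, had 406, 823, 329 and 467 (adjusted p 0.0959), and HPRT1, of purine salvage, fell, with 6.57, 3.66, 8.50 and 4.61 (-0.85 ± 0.16; adjusted p 0.0249), but its coefficient was -0.62 (adjusted p 0.0939) with GC content and length removed. The libraries matched the label of an epithelial line in that KRT8, KRT18, KRT19, EPCAM and CDH1, markers of epithelia, were above 0 in all 4 libraries. KLK3, the gene of prostate-specific antigen, was listed at 0 in all 4. KRT18 had 26.4, 99.4, 17.1 and 34.6 and KRT19 34.7, 93.2, 20.2 and 53.0, and both rose by limma, but with equal FPKM sums their coefficients were -0.61 and -0.66, and with GC content and length removed 0.45 and -0.41 (adjusted p 0.215 and 0.201). Markers of other cells were listed at or near 0: PTPRC, CD3E, HBB, DCN and PECAM1 at 0 in all 4 libraries, COL1A1 at 0.150, 0.211, 0.118 and 0.102, and ALB at 0.0846 in miR-28CT replicate 2 alone. Whether a 0 of KLK3 or of these markers is a failed estimate was not tested.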

How the data were processed

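The authors checked the reads with FastQC 0.10.1, trimmed them with cutadapt, aligned them to hg38 with TopHat2 2.0.9 and deposited FPKM of 53209 RefSeq transcript records per library, estimated by Cufflinks 2.1.1. The deposited coverage, which the authors obtained from Cufflinks as the mean read depth over each record, served here only to estimate reads and shares with a read length of 50 bases. Only the 52530 records that Cufflinks marked OK in every library entered, of which 97.2% were named from the RefSeq table of GRCh38.p14 (51072 records), and FPKM were summed per symbol and scaled by the median of ratios over 12517 genes above 0 in all 4 libraries, giving size factors of 1.06, 0.842, 1.06 and 1.08 in the order miR-28CT 1, miR-28CT 2, miR-28BIO 1, miR-28BIO 2. Genes with a mean scaled FPKM under 0.5 were left out, and a pseudocount of 0.1 was added before the log2. limma 3.58.1 in R 4.3.3 (lmFit, eBayes with a trend, terms arm and replicate) was applied to the 11321 genes, with Benjamini-Hochberg adjustment over all of them. Base composition came from the canonical transcripts of GENCODE 44, which 98.5% of the genes had.

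Genes named for their rank had a mean scaled FPKM of at least 5 and were above 0 in all 4 libraries; reference genes, SREBF2, markers and examples needed neither. Those named for their rank are the 10 higher and 10 lower with the largest smaller difference of the arms, the 4 per arm past 2-fold there and within 0.5 in the other arm, 1 for each opposite pattern, and the most abundant gene of each RNA class; other members of classes and lists were named as examples after their values were seen, as were the printed stretches. RNA classes were set by symbol. The members and lists were chosen with earlier results of these data known. Alternatives changed the pseudocount, scaling, filter, summary level, fold, fit and libraries. Reads per gene are unknown, so no interval for counting error is given. Records of ribosomal RNA and RN7SL1 were left out for their status. Scripts (Python 3.11.15, numpy 2.4.6, pandas 2.3.3, matplotlib 3.10.9) were tested on simulated data.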

Additional observations from a re-analysis of the deposited data

Results flagged for a closer look

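RN7SL1, a 7SL RNA left out of the gene sums because Cufflinks did not estimate it in miR-28CT replicate 2, had an FPKM of 101751 in miR-28BIO replicate 2 against 538 in miR-28BIO replicate 1 and 2586 in miR-28CT replicate 1, a high signal in values that the comparison did not use. The 71 genes past 2-fold in opposite directions in the arms, of which 56 were listed at 0 in some library, were 35 higher in miR-28CT and lower in miR-28BIO and 36 the other way. SNORA71A, an H/ACA box snoRNA, had a scaled FPKM of 11.4 and 23.0 in miR-28CT replicates 1 and 2 and of 70.9 and 12.8 in miR-28BIO, differences of 1.01 and -2.46. With GC content and length removed its differences were -0.10 and -3.28, no longer in opposite directions. SNORD42A, a C/D box snoRNA, had 415 and 46.6 in miR-28CT and 143 and 295 in miR-28BIO, differences of -3.15 and 1.04 (-2.57 and 1.49 with GC content and length removed). With equal FPKM sums limma called it lower over both arms (adjusted p 0.0143). The differences between the arms were not tested.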

How the results depend on the processing

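No paired analysis was possible because the replicate number is itself what is compared and cannot also be the block; the arm, within which each difference is taken, is a term of the fit. Of 52 named genes, 50 kept direction and side of the threshold with a pseudocount of 1, all 52 with 0.01, 49 on FPKM as deposited, 50 under the upper quartile, 38 without the arm term, 32 with equal FPKM sums, where 13 changed sign, 13 to 17 with 1 library left out, and 39 of 51 with GC content and length removed, where 6 changed sign. Why values moved was not tested, but stricter filters and folds leave fewer genes in any case. With each library's FPKM set to the same sum, limma called 176 genes higher, and 213 were past 2-fold higher in both arms, 6677 lower, 2685 in miR-28CT only, 642 in miR-28BIO only and 170 in opposite directions; the coefficients of NOP10, GAPDH, SREBF2, KRT18 and KRT19 turned to -0.69, -1.06, -0.22, -0.61 and -0.66. With a mean of at least 5, limma called 1675 higher and 1320 lower, 1178 and 649 were past 2-fold in both arms, 547 and 344 in miR-28CT and miR-28BIO only and 25 in opposite directions, with a Spearman rho of 0.880. With single transcripts limma called 0 and 0 (unadjusted p under 0.05 for 2649 and 2257), 2230 were lower in both arms, 2604 and 2331 past 2-fold in 1 arm only and 829 in opposite directions, with r 0.423 and rho 0.530. Without the arm term limma called 1006 and 791. With 1 library left out and no arm term, since 3 libraries leave it no residual, and the lone library assumed to vary like the others, limma called 0 to 143 genes higher and 0 to 6 lower, with 0 and 0 without miR-28CT replicate 1 (1660 and 990 unadjusted) and without miR-28BIO replicate 1 (1354 and 1046), and the NOP10 coefficient ranged from -0.23 to 2.99. At a 4-fold threshold 771 and 224 genes passed in both arms, 720 and 476 in 1 arm only and 37 in opposite directions, and at 1.5-fold 2537 were lower in both and 148 opposite. With a pseudocount of 1, 835 were lower in both and 36 opposite, with r 0.702, and with 0.01 r was 0.535. With the other arm within 0.5, 516 and 368 differed in 1 arm only. Without a filter 1649 differed in miR-28BIO only and 162 in opposite directions, with rho 0.720. By share of the summed FPKM 3 classes lay more than 0.1 above 0 in both arms, where 10 had lain as far above all genes by the medians, and the mean log2 ratio was -0.31 for C/D box snoRNAs, -0.00819 for Cajal body RNAs, -0.47 for spliceosomal RNAs, -1.13 for snoRNA hosts, -0.88 for cytosolic and -1.17 for mitochondrial ribosomal protein genes and -0.77 for respiratory chain genes; by share of reads it was -0.0345 for mitochondrial ribosomal protein genes. Alternatives added after seeing the data were the removal of GC content and length, which left 1167 and 969 genes by limma, 883 and 848 past 2-fold in both arms and 108 opposite, with r 0.498 and rho 0.694, polymerase III RNAs at -0.41 relative to all genes, MRPL41 at -0.48 and KRT19 at -0.41, and genes above 0 in all 4 libraries, with 15 opposite and r 0.878; with coding genes or genes with a sequence alone the limma counts were within 1.5 times of those reported. Reads per record are unknown, so depth limits what a 0 means: 162 and 180 of 290 small RNA records were at 0 in the replicate 1 libraries of miR-28CT and miR-28BIO. Ribosomal RNA was not compared.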
